A study of Mus musculus with 2 samples.

Results

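The subject is 8 genes that act in blood vessel growth: the ligand Apln and its receptor Aplnr, the ligands Angpt1 and Angpt2, the receptor tyrosine kinases Tek and Tie1, and the tip cell genes Esm1 and Dll4. They were picked by symbol for their known roles, with earlier results of these data known, and all 8 were present among the 22480 genes of both deposited tables. There were 2 single-cell libraries of mouse spinal cord, 1 after a sham procedure and 1 taken 3 days after injury (3 dpi). In both, cells of 5 males and 5 females, all 8 weeks old and C57BL/6, were pooled, and no other allele or agent is named. The tissue was a digested 8 mm piece of cord, around the lesion in the injured mice. No label says what kind of injury was made. With 1 library per group there was no replicate and no test, and the library and the injury cannot be told apart. Brackets hold 95% intervals for the error of counting alone, of UMIs for levels and of cells for shares. Differences among mice or libraries are in none of them, and differences among cells are not in those of levels.

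Apelin, the product of Apln, is a small secreted peptide that signals through the G protein-coupled receptor encoded by Aplnr, and both are known from growing vessels. Angpt1 is usually made by mural and other perivascular cells and activates Tek, which stabilises vessels; Angpt2 is made by endothelial cells and can oppose it, and Tie1 is an orphan relative that modifies Tek signalling. Tip cells lead a growing sprout; Dll4 is the Notch ligand they display to their neighbours, and Esm1 is a secreted proteoglycan often used to mark them.

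The 250 bases before the start of 3 members are shown: Apln, the member with the widest difference in endothelial-like cells, and the tip cell genes Esm1 and Dll4, which differed in where they were found. They come from RefSeq on mouse build GRCm38.p6, in which 5 of the 8 members were matched, and no coordinate of the deposited files is involved. Each is given 5′ to 3′ on the strand of its gene: Apln at chrX:48034854-48035103 on the minus strand, Esm1 at chr13:113209409-113209658 on the plus strand and Dll4 at chr2:119325534-119325783 on the plus strand. Capitals mark every match, on either strand, to the hypoxia response core (ACGTG or GCGTG), the ETS core (GGAA) or the AP-1 site (TGACTCA or TGAGTCA).
Apln: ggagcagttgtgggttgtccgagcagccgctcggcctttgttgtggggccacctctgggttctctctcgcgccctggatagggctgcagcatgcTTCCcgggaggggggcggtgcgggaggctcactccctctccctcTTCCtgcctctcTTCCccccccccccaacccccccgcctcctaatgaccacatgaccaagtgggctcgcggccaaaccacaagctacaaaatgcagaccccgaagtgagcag
Esm1: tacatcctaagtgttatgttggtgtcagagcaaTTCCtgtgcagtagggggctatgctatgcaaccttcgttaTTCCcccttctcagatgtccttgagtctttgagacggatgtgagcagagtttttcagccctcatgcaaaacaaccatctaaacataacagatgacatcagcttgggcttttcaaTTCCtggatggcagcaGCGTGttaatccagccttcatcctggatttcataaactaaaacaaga
Dll4: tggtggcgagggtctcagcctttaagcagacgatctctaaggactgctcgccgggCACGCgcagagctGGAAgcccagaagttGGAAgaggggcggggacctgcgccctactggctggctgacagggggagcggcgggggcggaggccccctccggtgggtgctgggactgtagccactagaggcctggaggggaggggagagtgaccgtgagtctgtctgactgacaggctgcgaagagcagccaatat
The Apln window held 3 ETS cores and 0 hypoxia cores. The Esm1 window held 3 ETS cores and 1 hypoxia core, and that of Dll4 held 2 and 1. None of the 3 held an AP-1 site. Of 32851 mouse promoter windows of this length, 93.4% held an ETS core, with a median of 3 matches, 38.6% held a hypoxia core and 4.46% an AP-1 site. These matches are letters, not sites of binding.

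The sham library held 76889038 UMIs (unique molecular identifiers, 1 per captured RNA molecule) in 10138 barcodes, and the 3 dpi library 149291783 in 13594. After filters and doublet removal, 9306 and 12108 cells remained, in 34 clusters of which 26 took a class name from markers and 8 stayed unnamed. The 2 libraries shared 39 barcode sequences. Endothelial-like cells, named from Cldn5, Pecam1, Cdh5 and other markers that include no member, numbered 1410 in sham (15.2% of cells) and 408 at 3 dpi (3.37%). They came almost entirely from different clusters: 1405 of the sham cells were in cluster 2 and 380 of the 3 dpi cells in cluster 19, with 28 of the 3 dpi cells in cluster 2 and 5 of the sham cells in cluster 19. Their median depth was 3218.5 UMIs per cell in sham and 13987 at 3 dpi. Neuron-like cells numbered 21 and 13, and no cluster was named astrocyte-like.

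In endothelial-like cells, Apln, Aplnr and Angpt2 were higher at 3 dpi than in sham, and Tek was lower. Levels are the UMIs of a gene over all UMIs of its class, in the usual CPM unit, and a member counted as measured if either library reached 20 CPM. A log2 ratio divides the 3 dpi by the sham level after adding 10 CPM to each, and 2-fold on that scale was the limit for calling a gene higher or lower. Of the 6 measured members, 3 were at least 2-fold higher and 1 at least 2-fold lower. Apln and Aplnr, at 4.81 and 7.21 CPM in sham, counted as measured only through 3 dpi. At the sham level of Apln, reaching 20 CPM at 3 dpi already gives a higher call. Angpt1 and Esm1, below 20 CPM in both libraries, were not counted, so the count of 3 depends in part on the limit. Of all 7074 measured genes in these cells, 8.34% were at least 2-fold higher and 14.1% at least 2-fold lower, with a median log2 ratio of -0.26. With median-of-ratios scaling, against which CPM ratios were shifted by -0.33 (log2), those shares were 13.02% and 8.74%, so that 59.8% of calls were higher against 37.2% with CPM. The members' 3 higher calls and 1 lower call were the same with either scaling.

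Apln was the ligand with the widest difference. It stood at 4.81 CPM [3.20 to 6.95] in sham, from 28 UMIs in 24 of 1410 cells. At 3 dpi it stood at 339 CPM [326 to 353], from 2519 UMIs in 190 of 408 cells. The 2 intervals lay far apart, and the ratio was 70.6-fold [48.7 to 106], a log2 ratio of 4.56. All 2519 UMIs at 3 dpi were in cluster 19, and the 28 cells of cluster 2 held 0. The level was uneven among cells: 1 cell held 70 Apln UMIs, and the 10 cells with the most held 24.5% of them. Without the 10 cells with the most Apln UMIs in each library, the levels were 2.44 and 270 CPM. The sham level depended on doublet removal: it was 16.1 CPM with called doublets kept, for a log2 ratio of 3.71.

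Aplnr, the apelin receptor, had 42 UMIs in sham, or 7.21 CPM [5.20 to 9.75], and 681 at 3 dpi, or 91.8 CPM [85.0 to 98.9]. The ratio was 12.7-fold [9.31 to 17.8] and the log2 ratio 2.56. Outside endothelial-like cells Aplnr was close to 0: the class held 97.0% of the 3 dpi library's Aplnr UMIs, and no other named class there exceeded 0.592 CPM. In sham, endothelial-like cells held 66.7% of them, and most of the others, 27.0%, were in unnamed cluster 21, which had both endothelial and pericyte markers.

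Sham cells held Angpt2 at 22.5 CPM [18.8 to 26.7], 3 dpi cells at 115 CPM [107 to 123], 5.11-fold [4.25 to 6.19] higher, a log2 ratio of 1.94. Its sham level in endothelial-like cells did not differ beyond the intervals from that of pericyte or smooth muscle-like cells, at 26.4 CPM [17.7 to 37.9]. Angpt1 was scarcely detected in endothelial-like cells, with 4 UMIs in sham (0.687 CPM) and 1 at 3 dpi (0.135 CPM), too few for a comparison.

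The receptor Tek was lower: 362 CPM [347 to 378] in sham against 113 CPM [105 to 121] at 3 dpi, 3.22-fold [2.97 to 3.49] lower with a log2 ratio of -1.60. Its relative Tie1 stood at 235 CPM [222 to 247] and 130 CPM [122 to 138], 1.81-fold [1.66 to 1.97] lower, which was within the 2-fold limit. These are relative levels. Per cell, the mean was 1.496 Tek UMIs in sham and 2.05 at 3 dpi, and 0.969 and 2.36 for Tie1, in cells whose median depth also differed, as given above. The 28 endothelial-like cells at 3 dpi that fell in cluster 2 had Tek at 382 CPM and Tie1 at 214 CPM, against 108 and 128 CPM in the 380 cells of cluster 19.

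Of the tip cell genes, Dll4 had a sham level of 116 CPM [108 to 126] against 53.4 CPM [48.2 to 58.9] for 3 dpi. That was 2.18-fold [1.93 to 2.48] lower, and its log2 ratio of -0.997 fell just short of the limit, so that small changes of processing moved it across. Esm1 had 0 UMIs in sham endothelial-like cells and 13 at 3 dpi (1.75 CPM [0.933 to 2.99]), in 9 of 408 cells, which is 3.40-fold a floor of 3 UMIs over the sham class, with a lower limit of 2.39 for the ratio itself. Both levels were under the 20 CPM limit, so no call was made. Its level in these cells was no higher than in precursor-like oligodendroglia, at 1.96 CPM [1.23 to 2.97].

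**Figure D1:**
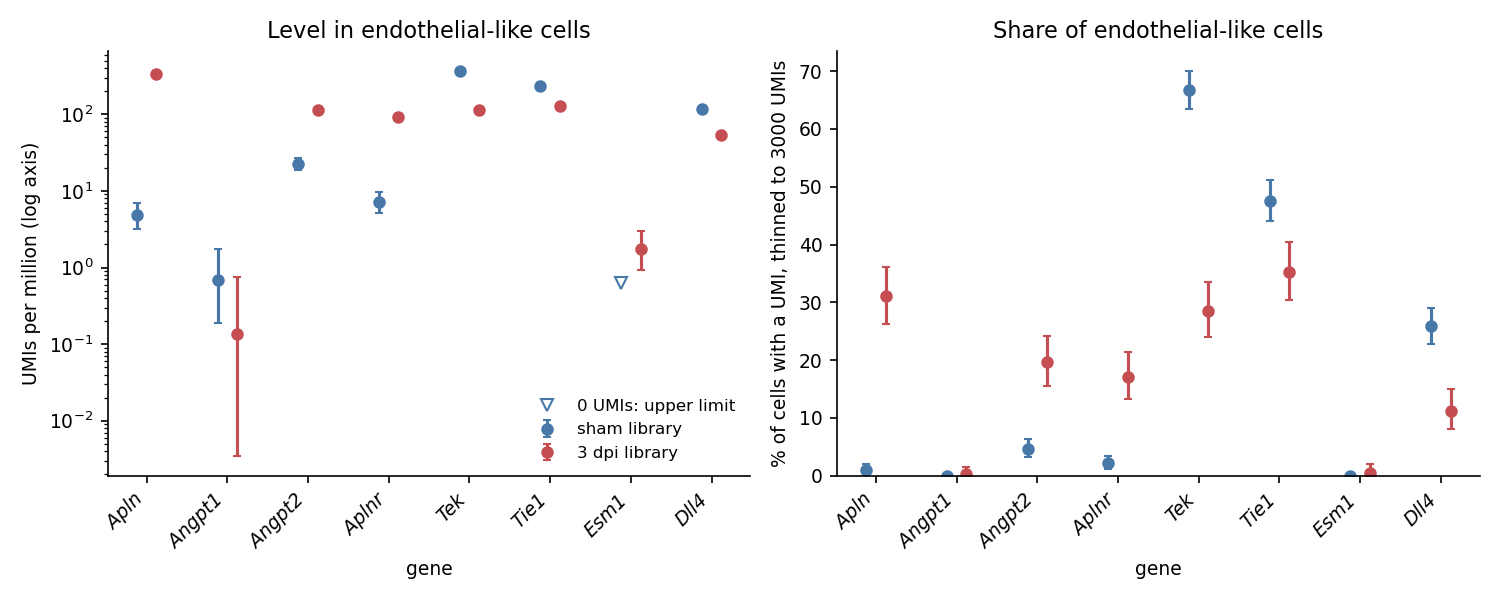
Left, the level of each member in endothelial-like cells of the sham (blue) and 3 dpi (red) library, in CPM on a log axis, with 95% Poisson intervals; the open triangle is the upper limit where no UMI was found. Right, the share of cells with a UMI after each cell was thinned to 3000 UMIs, with 95% binomial intervals: Apln is at 1.004% in sham and 31.1% at 3 dpi, and Tek at 66.8% and 28.6%.

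Shares of cells with a UMI were compared after each cell was thinned at random to 3000 UMIs, which left 797 sham and 357 3 dpi endothelial-like cells. An Apln UMI was found in 1.004% of the sham cells [0.434 to 1.97] and in 31.1% of the 3 dpi cells [26.3 to 36.2]. As a background, microglia-like cells, which should lack Apln, had 0.8005% and 0.0568% after the same thinning, with unthinned median depths of 3878 and 12945.5 UMIs. The sham endothelial share was thus near the background and the 3 dpi share was not. Aplnr was found in 2.13% [1.25 to 3.39] and 17.1% [13.3 to 21.4], and Angpt2 in 4.64% [3.29 to 6.34] and 19.6% [15.6 to 24.1]. For Tek the shares were 66.8% [63.4 to 70.02] and 28.6% [23.9 to 33.6], and for Dll4 25.8% [22.8 to 29.0] and 11.2% [8.13 to 14.9]. Tie1 was found in 47.6% [44.0 to 51.1] and 35.3% [30.3 to 40.5]. Each of these intervals was apart from that of the other library, but they take the cells of 1 pooled library as independent. They are no test between sham and 3 dpi. Without thinning, the share with Apln was 1.70% and 46.6%, and that with Tek was 67.9% and 68.6%, so the lower share with Tek at 3 dpi was seen at equal depth and not without thinning. Esm1 was found in 0 of 797 and in 0.560% of thinned cells.

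Markers of other cell types in the endothelial-like cells also differed between the libraries. The 6 border-associated macrophage markers summed to 1.03 CPM in sham and 108 at 3 dpi, all 6 higher and led by Pf4, and the 8 monocyte or macrophage markers to 752 and 1434 CPM, all 8 higher and led by Fn1. Fn1 alone stood at 750 CPM in sham and 1073 CPM at 3 dpi, nearly all of the sham sum and most of the other. The summed level of 5 erythroid markers was 50.3 CPM in sham and 674 at 3 dpi, all 5 higher, that of 7 fibroblast markers 8.76 and 193, 6 of 7 higher with Dpt at 0 in both, and that of 7 neutrophil markers 2.92 and 140, 6 of 7 higher with Ly6g at 0 in both. The 8 oligodendrocyte markers summed to 2807 and 227 CPM, with 0 of 8 higher, and the 9 pericyte or smooth muscle markers to 932 and 654 CPM, with 7 of 9 higher. The 8 endothelial markers themselves summed to 19841 CPM in sham and 7032 at 3 dpi, with 1 of 8 higher. The part of these differences in the members' levels was not tested as such. With cells holding any pericyte or smooth muscle marker UMI left out, 590 sham and 272 3 dpi cells remained. In them Apln stood at 5.97 and 360 CPM, and Angpt2 at 108 CPM at 3 dpi. With 5% of the UMIs subtracted as free RNA, Apln stood at 2.95 and 356 CPM and Tek at 379 and 118 CPM. Cells could be assigned to the sex of their donor by Xist and Y-linked UMIs. At 3 dpi Apln stood at 405 CPM [386 to 425] in 175 male-derived and 222 CPM [203 to 243] in 121 female-derived endothelial-like cells, against 4.67 and 4.09 CPM in sham. The other 112 cells, with UMIs of both kinds or neither, had 333 CPM. After thinning, the shares with Apln were 36.0% [28.9 to 43.7] of male-derived and 22.7% [15.3 to 31.7] of female-derived cells, intervals that overlap, and 10 cells held 64.2% of the female-derived Apln UMIs. Tek stood at 110 CPM [100 to 121] and 125 CPM [111 to 141]. How many mice gave these cells is not known, since they were pooled.

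The ligands were then followed across the other classes with at least 50 cells in a library. Apln had a different main source in each library. In sham, oligodendrocyte-like cells had the highest level, 58.9 CPM [56.6 to 61.2] from 2508 UMIs, and held 95.7% of the library's Apln UMIs. Each of their 5 sham clusters of 25 cells or more had Apln, at 48.3 to 71.0 CPM. The next classes were oligodendrocyte precursor-like cells (7.41 CPM [4.32 to 11.9]), pericyte or smooth muscle-like cells (5.45 CPM [2.001 to 11.9]) and endothelial-like cells, whose intervals overlap. Thinned to 3000 UMIs, 15.8% of oligodendrocyte-like cells had an Apln UMI. At 3 dpi, endothelial-like cells held 78.2% of the Apln UMIs, against 1.07% in sham, while making up 3.37% of the cells.

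Oligodendrocyte-like cells at 3 dpi still ranked after endothelial-like cells, at 29.5 CPM [26.9 to 32.2] and 14.7% of the Apln UMIs. Their level was 1.999-fold [1.81 to 2.21] lower than in sham, a log2 ratio of -0.80, within the 2-fold limit. In this class 4.71% of 6241 measured genes were at least 2-fold higher and 3.73% at least 2-fold lower. The libraries' oligodendrocyte-like cells again came from different clusters, 13 and 14 at 3 dpi with 24.6 and 37.4 CPM. Unnamed cluster 20 (15.4 CPM) and oligodendrocyte precursor-like cells (6.95 CPM) followed, and every other class was at 2.72 CPM or less.

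**Figure D2:**
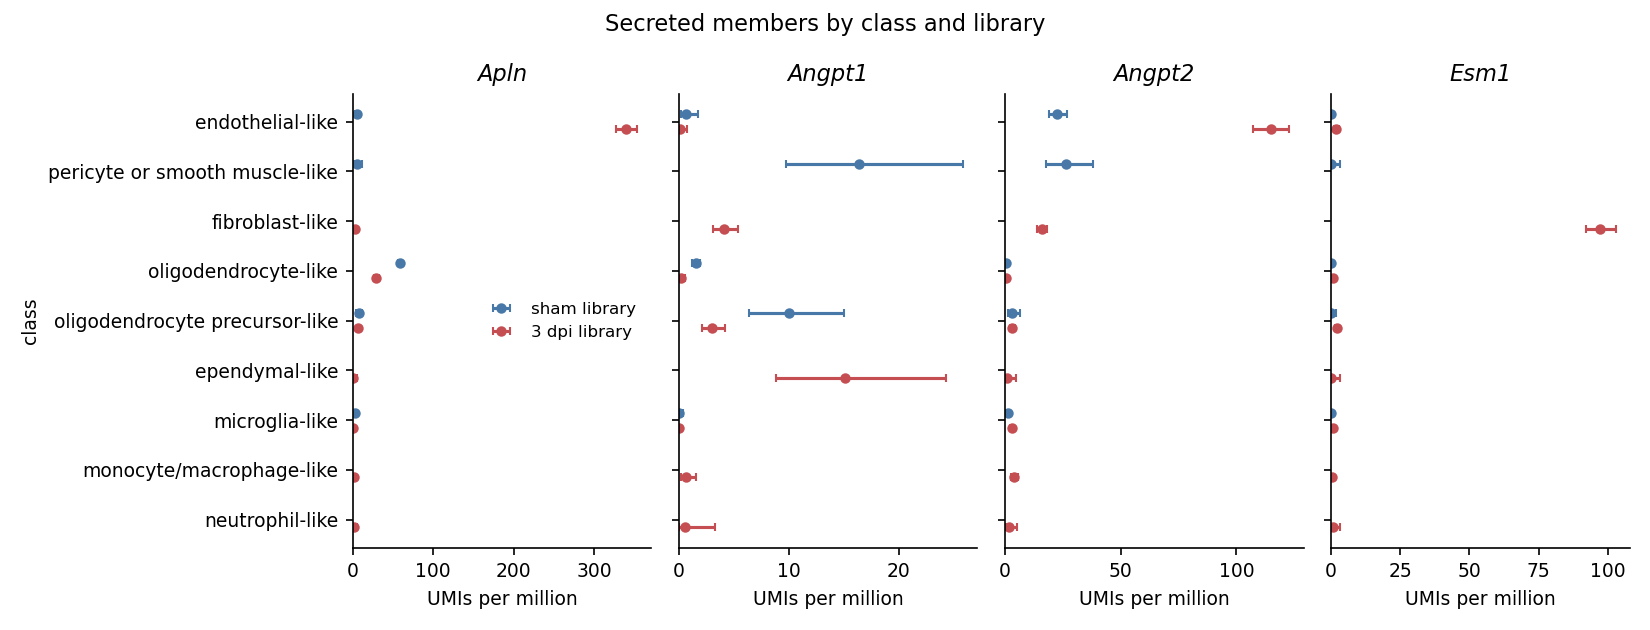
Level of the 4 secreted members in a chosen set of named classes, in CPM with 95% Poisson intervals, sham in blue and 3 dpi in red, with a separate linear axis for each gene. B cell-like, T or NK cell-like and neuron-like cells are not shown. A class without a point had fewer than 50 cells in that library. Apln is highest in sham in oligodendrocyte-like cells (58.9 CPM) and at 3 dpi in endothelial-like cells (339 CPM), and Esm1 is high only in 3 dpi fibroblast-like cells (97.3 CPM).

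Esm1 was found almost only in fibroblast-like cells at 3 dpi. They held 94.0% of its UMIs, at 97.3 CPM [92.0 to 103] from 1253 UMIs in 40.8% of 693 cells. Both fibroblast-like clusters had it, cluster 17 at 82.2 CPM and cluster 23 at 138 CPM. No other named class exceeded 1.96 CPM, and Esm1 had 0 UMIs in each sham class of 50 cells or more. Sham held only 19 fibroblast-like cells, so no ratio could be given for the class. The next comparisons in this paragraph were chosen after the values were seen. In thinned fibroblast-like cells, 123 of 661 had an Esm1 UMI, and of these 95.1% [89.7 to 98.2] also had a UMI of the collagen gene Col1a1. Col1a1 is among the markers from which the class was named, and 93.3% [90.9 to 95.3] of the cells without Esm1 had it too. A Pecam1 UMI was found in 0 of the 123, which allows a share of up to 2.44% by a limit of 3 counts, or 2.95% by the exact interval. That is a share of cells with a UMI rather than cells expressing it. A Cldn5 UMI was found in 1.63% of the cells with Esm1. Of the 538 cells without Esm1, 1 had a Pecam1 UMI and 1.30% a Cldn5 UMI. Cdh5, also an endothelial marker, was found in 26.0% [18.5 to 34.7] of the cells with Esm1 and 20.6% [17.3 to 24.3] of those without. Esm1 stood at 111 CPM [104 to 119] in 395 male-derived and 73.1 CPM [63.2 to 84.0] in 142 female-derived fibroblast-like cells. After thinning, the shares of these cells with Esm1 had overlapping intervals, 20.4% [16.5 to 24.7] and 18.6% [12.5 to 26.0], and 10 cells held 36.0% and 53.8% of the UMIs.

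Angpt2 had sources besides endothelial-like cells in both libraries. In sham, endothelial-like cells held 52.2% of its UMIs, pericyte or smooth muscle-like cells 11.6%, and unnamed cluster 21 held 21.9%. At 3 dpi, endothelial-like cells held 57.1% and fibroblast-like cells 13.8% at 15.99 CPM [13.9 to 18.3]. Unnamed cluster 0, led by macrophage genes such as Pf4, Arg1 and Lyz2, held 13.1% at 8.66 CPM [7.49 to 9.97]. Within the fibroblast-like class, cluster 23 had 43.6 CPM and cluster 17 had 5.66 CPM. Among thinned fibroblast-like cells, an Angpt2 UMI was found in 11.4% [6.36 to 18.4] of those with Esm1 and 3.72% [2.29 to 5.68] of those without.

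Angpt1 stayed below the 20 CPM limit in every class of either library. In sham it was highest in pericyte or smooth muscle-like cells, at 16.4 CPM [9.70 to 25.9] from 18 UMIs, then in oligodendrocyte precursor-like cells at 10.0 CPM [6.36 to 15.05], and these intervals overlap. At 3 dpi it was highest in ependymal-like cells, at 15.1 CPM [8.82 to 24.2] from 17 UMIs in 75 cells. Fibroblast-like cells had 4.11 CPM [3.08 to 5.38] and precursor-like cells 3.03 CPM [2.10 to 4.23], with 37.3% and 23.9% of the library's Angpt1 UMIs. The 3 dpi library kept only 10 pericyte or smooth muscle-like cells, so the usual source of Angpt1 could not be followed after injury.

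The receptors and Dll4 had 1 main class in both libraries. At 3 dpi, endothelial-like cells held 93.5% of Tek, 92.2% of Tie1 and 94.96% of Dll4 UMIs. The highest level of Tek in another named class was 1.32 CPM, in fibroblast-like cells. In sham, endothelial-like cells held 66.9%, 69.9% and 63.0%, and unnamed cluster 21 (333 cells) most of what remained, with Tek at 300 CPM [281 to 320], Tie1 at 163 CPM [150 to 178] and Dll4 at 112 CPM [100 to 124]. Pericyte or smooth muscle-like cells in sham had 10.9 CPM of Tek, 10.9 of Tie1 and 8.18 of Dll4, which was higher than in microglia-like or oligodendrocyte-like cells, at 1.68 CPM or less for each.

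Within the endothelial-like cells of the 3 dpi library, a UMI of Angpt2 was found more often in cells with Apln than in cells without, and a UMI of Aplnr less often, the latter with less separation. Of the 357 thinned cells, 111 had an Apln UMI. Angpt2 was found in 37.8% [28.8 to 47.5] of these and in 11.4% [7.70 to 16.03] of the 246 without. Dll4 was found in 18.9% [12.1 to 27.5] and 7.72% [4.71 to 11.8]. Both pairs of intervals were apart. Thinned to 1000 UMIs, Angpt2 was still apart, while the Dll4 intervals overlapped, at 11.8% [5.56 to 21.3] and 3.73% [1.94 to 6.42]. Aplnr went the other way, with 9.01% [4.41 to 15.9] and 20.7% [15.8 to 26.3], intervals that just overlap. Without thinning they overlapped more, at 28.4% [22.1 to 35.4] and 38.5% [32.0 to 45.3]. Tek, with 19.8% [12.9 to 28.5] and 32.5% [26.7 to 38.8], and Tie1, with 29.7% [21.4 to 39.2] and 37.8% [31.7 to 44.2], were lower in share in the cells with Apln, and these intervals overlap. For Tek they were apart at 1000 UMIs, with 1.32% [0.033 to 7.11] and 12.4% [9.02 to 16.5]. Without thinning Tek had the opposite direction, with 73.7% and 64.2%. Ligand and receptor of the apelin pair were both found in 10 cells thinned to 3000 UMIs, in 0 thinned to 1000 and in 54 without thinning.

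Seen from the receptor, 61 of the 357 cells had an Aplnr UMI. Apln was found in 16.4% [8.15 to 28.1] of them and in 34.1% [28.7 to 39.8] of the others, intervals that lie just apart at this depth and overlap without thinning, at 39.1% [30.9 to 47.8] and 50.4% [44.2 to 56.5]. Tek was found in 45.9% [33.1 to 59.2] against 25% [20.2 to 30.3], also apart, while Tie1, Angpt2 and Dll4 had overlapping intervals. In sham only 8 thinned cells held Apln and 17 held Aplnr. There Apln was found in 2 of the 17 cells with Aplnr, 11.8% [1.46 to 36.4], and in 0.769% [0.283 to 1.67] of the others, the opposite direction to 3 dpi, on 2 cells and with overlapping intervals. The sham genes with many positive cells showed little linkage: Tie1 was found in 46.4% [42.1 to 50.8] of cells with Tek and 49.8% [43.6 to 56.0] of those without, and Dll4 in 25.2% and 27.2%.

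**Figure D3:**
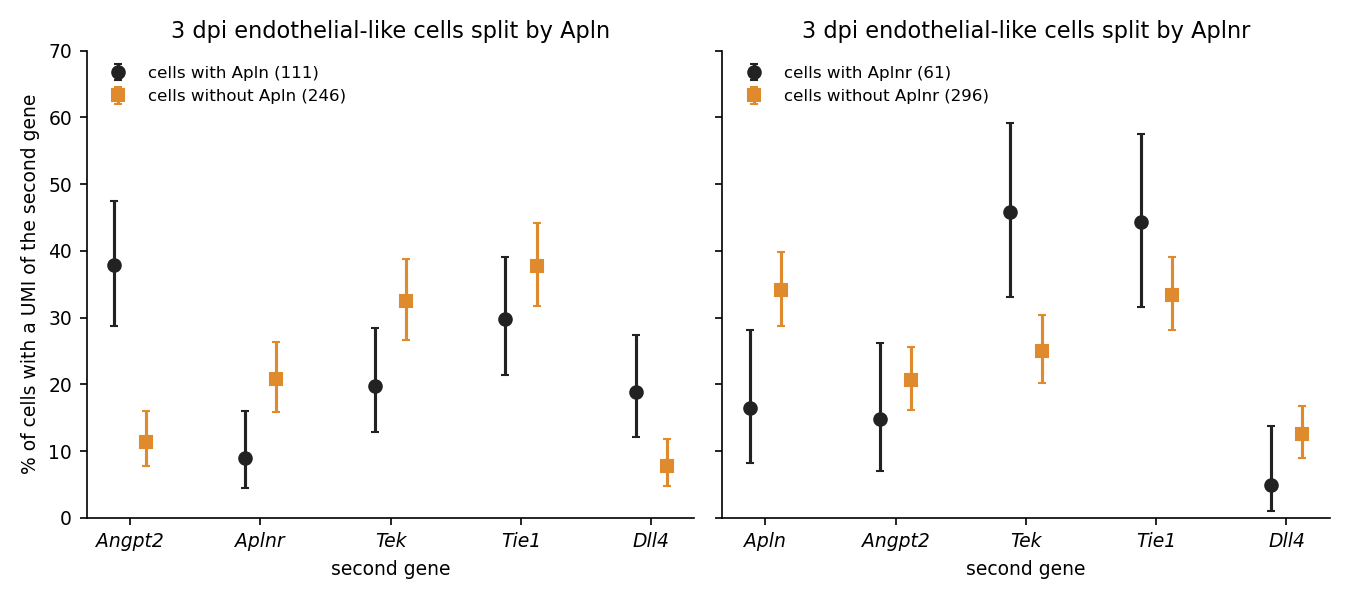
Share of 3 dpi endothelial-like cells with a UMI of a second member, in cells with (black circles) or without (orange squares) a UMI of Apln (left) or Aplnr (right), all thinned to 3000 UMIs, with 95% binomial intervals. Angpt2 is at 37.8% in cells with Apln and 11.4% in cells without, and Tek is at 45.9% in cells with Aplnr and 25% in cells without.

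The 2 groups of cells were then compared for the listed vessel genes, again on thinned UMIs and with no sample behind them but the 1 library. Which member to split by, and which genes to name here, was chosen after the values were seen. Of 6038 genes with at least 20 UMIs, 5.80% were at least 2-fold higher and 8.48% at least 2-fold lower in the cells with Apln. Of the tip cell list, 9 of 18 genes were higher and 0 lower, with a median fold of 1.86. Adm, the peptide adrenomedullin, was 3.65-fold [2.58 to 5.22] higher, Igfbp3 3.64-fold [2.79 to 4.77] and Trp53i11 3.13-fold [2.43 to 4.04]. Col4a1 and Col4a2, basement membrane collagens, were at 0.863-fold [0.762 to 0.975] and 1.05-fold [0.910 to 1.21]. Of the 7 venous genes, 6 were lower, most of all Ackr1, a chemokine scavenger of venules, with 2 UMIs in the cells with Apln and 246 in the others, 55.5-fold lower. The transporter Slc38a5 was 24.3-fold lower and the adhesion molecule Icam1 9.64-fold lower. Of 6 capillary genes 4 were lower, among them the lipid transporter Mfsd2a, 3.99-fold. The 7 proliferation genes were all within 2-fold. Of 8 pericyte or smooth muscle markers, 5 were lower in the cells with Apln and 0 higher, and of 8 endothelial markers 3 were lower; their part in the split was not tested.

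Cells with Aplnr had a different profile for the tip cell and venous lists. Of the tip cell list 1 of 18 genes was at least 2-fold higher, Igfbp3 at 2.38-fold [1.80 to 3.13], and 2 were lower. Of the venous list 2 of 7 were higher and 0 lower, with Ackr1 at 3.81-fold [2.93 to 4.93] and Slc38a5 at 2.19-fold [1.62 to 2.93]. In this split, 3.54% of genes were at least 2-fold higher and 9.09% at least 2-fold lower. Of 8 pericyte or smooth muscle markers, 4 were lower and 0 higher, close to the counts in the split by Apln. Cells with Angpt2 were like those with Apln, whose cells they share in part: 42 of the 70 cells with Angpt2 had Apln. Of the tip cell list 6 of 18 were higher and 0 lower, and of the venous list 6 of 7 lower, beside 4.01% and 8.53% of all genes. Trp53i11 was 3.29-fold [2.55 to 4.22] higher and the netrin receptor gene Unc5b 4.10-fold [1.81 to 9.28]. In the 40 cells with Dll4, by contrast, only 1 of 18 tip cell genes was at least 2-fold higher, Unc5b at 3.75-fold [1.496 to 8.71], while 5 of 7 venous genes were lower, beside 5.42% higher and 11.8% lower of all genes. Adm stood at 0.726-fold [0.366 to 1.31] in that split.

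**Figure D4:**
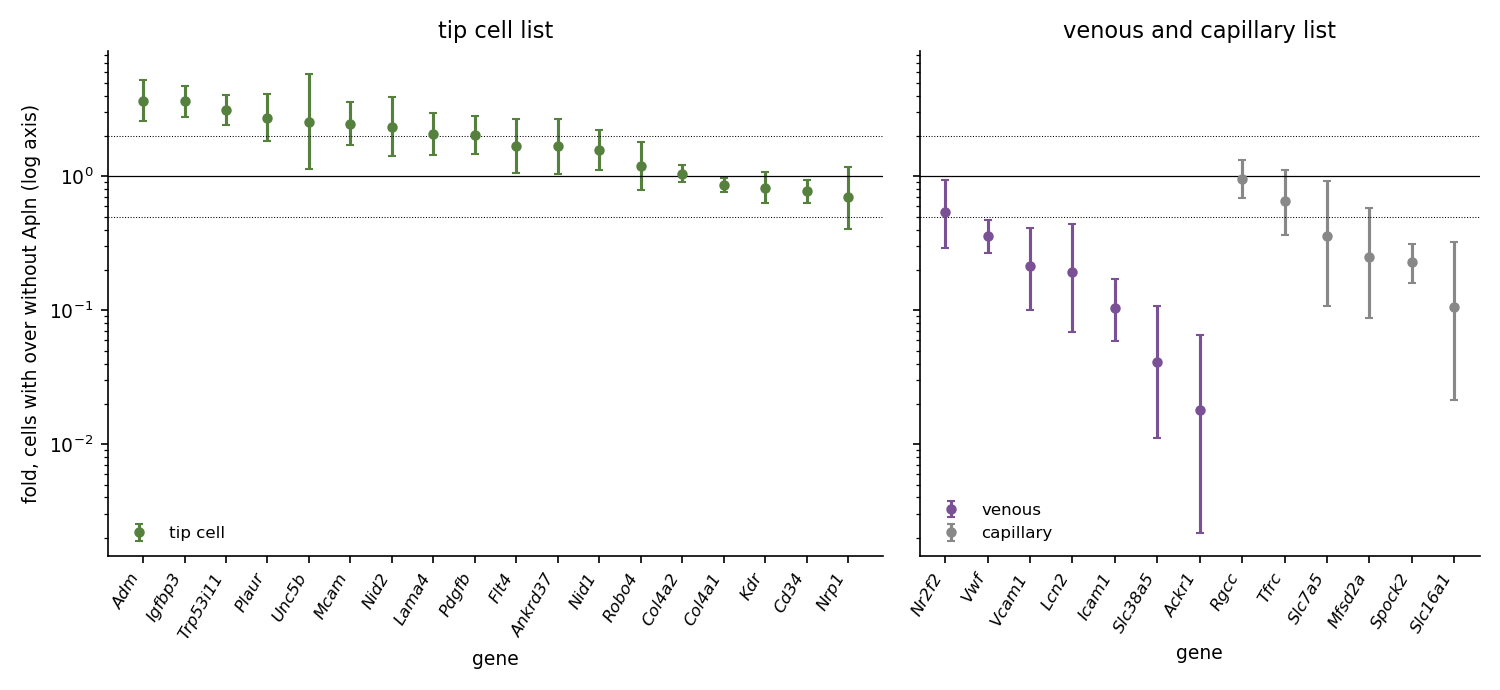
Fold of the level in 3 dpi endothelial-like cells with an Apln UMI over those without, on a log axis with 95% intervals from counting, for the tip cell list (left) and the venous and capillary lists (right); dotted lines mark 2-fold. Adm is at 3.65-fold and the venous gene Ackr1 lies lowest.

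Between the libraries, the pathway genes around the members differed in both directions. Each count below stands beside the 8.34% higher and 14.1% lower of all measured genes in endothelial-like cells. Of 5 measured genes of the angiopoietin and Tie pathway, 1 was higher, the integrin subunit Itga5 with a log2 ratio of 2.55. Itga5, at 13.7 CPM in sham, counted as measured only through 3 dpi. The phosphatase gene Ptprb, which acts on the Tek receptor, was lower at -1.65. Akt1 at 0.38, Foxo1 at -0.59 and Nos3 at -0.39 were within 2-fold, and the list median was -0.39, or -0.08 with median-of-ratios scaling. Of 5 measured apelin pathway genes, the flow-responsive transcription factors Klf4 (-1.85) and Klf2 (-1.82) were lower. Arrb1 at 0.90, Gnai2 at 0.47 and Nos3 at -0.39 were within 2-fold, though 1 of the 5 was called higher with median-of-ratios scaling. Apela, the other known ligand of the apelin receptor, had 0 UMIs in these cells of both libraries.

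Of 18 measured tip cell genes, 9 were higher and 3 lower, with a median log2 ratio of 0.97 against -0.26 for all measured genes. The highest were Trp53i11 (3.83), the adhesion molecule gene Mcam (2.91) and Igfbp3 (2.46). The lower ones were Nrp1 (-2.19), Unc5b (-1.50) and Kdr (-1.40), the receptors or co-receptors of semaphorins, netrins and VEGF. Trp53i11, Mcam and Ankrd37, at 8.07, 11.7 and 11.5 CPM in sham, counted as measured only through 3 dpi. The count of 9 higher thus depends in part on the limit. Of 10 measured Notch pathway genes, 0 were higher and 5 lower, with a median of -0.80. The Notch target genes Hey1 (-2.73) and Hes1 (-2.07) were lower, as were the ligand Jag2 (-1.53) and 2 others, while Mfng stood at 0.32. Hey1 and Lfng, both lower, stood at 10.4 and 10.8 CPM at 3 dpi and counted as measured only through sham. With median-of-ratios scaling 3 of the 10 were lower. Dll4, the member of this pathway, had the log2 ratio of -0.997 given above.

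Genes of vessel types differed by type. All 6 capillary genes were lower, led by Spock2 (-3.33), Mfsd2a (-2.97) and Rgcc (-2.35). Of 7 measured arterial genes 5 were lower, led by Gkn3 (-3.31), Sema3g (-1.93) and Vegfc (-1.79), and 2 were higher, the connexin gene Gja4 (1.74) and Mgp (1.06). Of 7 venous genes 4 were higher and 1 lower. Ackr1 had 2 UMIs in sham and 1288 at 3 dpi, a log2 ratio of 4.15. Lcn2 stood at 1.80, Vwf at 1.16 and Slc38a5 at -1.18. With median-of-ratios scaling the counts were 3 lower for the arterial list and 5 higher and 0 lower for the venous list. All 7 proliferation genes were higher, among them Ube2c (4.54), Birc5 (4.09) and Top2a (3.82), which had 2, 2 and 4 UMIs in sham. All 7 stood at 2.23 CPM or less in sham, so they counted as measured only through 3 dpi. A gene that low in sham is called higher once it reaches 20 CPM, so the count of 7 was fixed by the limit. The same held for the call of Ackr1, at 0.344 CPM in sham. Lcn2 and Gja4, at 6.70 and 11.9 CPM in sham, also counted as measured only through 3 dpi. The 5 lower arterial genes stood at 14.0 CPM or less at 3 dpi and counted only through sham. The venous and arterial counts thus depend in part on the limit.

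As a description of which genes were distributed like the members, Pearson's r of log2(CPM + 10) was taken over 15 profiles, each a named class in 1 library with at least 50 cells, for 11561 genes. The profiles share libraries and differ in depth, and a profile with 1 high class gives a high r by itself. Nearest to Apln were Atp8b1 (r = 0.865), Sema3f (0.819) and Sele (0.818). Nearest to Aplnr were Sema3f (0.994), Gm16104 (0.993) and Sele (0.977). Angpt2 was nearest to Stc1 (0.922), Nid2 (0.916) and Pcdh12 (0.915). Tek was nearest to Arhgef15 (0.998), Dll4 (0.998) and Adcy4 (0.996), and Tie1 to Adcy4 (0.997), Dll4 (0.996) and Arhgef15 (0.996). Dll4 was nearest to Tek (0.998), Arhgef15 (0.997) and Adcy4 (0.997). Esm1 was nearest to Lum (0.998), Aldh1a2 (0.997) and Wnt2 (0.997), and Lum is among the markers from which the fibroblast-like class was named. Angpt1 was under the level limit and was not compared.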

How the data were processed

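Single cells of 2 pooled spinal cord libraries were measured by 10x 3′ v3 chemistry. The authors deposited whole-number UMI counts per gene and cell; Cell Ranger, Seurat and GRCh38 are named in the submitters' processing notes without versions or roles, although the gene symbols are mouse. The tables held 0 mitochondrial genes. Cells with at least 200 genes and 500 UMIs were kept, and putative doublets, set at 0.8% per 1000 cells, were removed (820 in sham, 1476 at 3 dpi). Clusters came from 2000 variable genes without the members or pathway genes, 30 components, 15 neighbours and Leiden resolution 1.0 (leidenalg 0.10.2, scikit-learn 1.9.0, scipy 1.17.1, Python 3.11.15). A class was named from its marker list. UMIs were summed per class and library, with exact Poisson, Clopper-Pearson or conditional intervals at 95% that take UMIs, or cells for shares, as independent. Code was tested on simulated data. The members are always named, with up to 3 genes in each direction per pathway list and 3 per member by likeness. The members and lists were chosen with earlier results of these data known. Alternatives varied the CPM added, scaling, filters, doublets, resolution, free RNA, thinning and cells used.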

Additional observations from a re-analysis of the deposited data

Results flagged for a closer look

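Signal of the members stood in cells that were left out of the endothelial-like class and entered only 1 alternative, the one that adds unnamed clusters. Unnamed cluster 21 of the sham library, 333 cells with both endothelial and pericyte markers, had Tek at 299.8 CPM, Tie1 at 163.3 CPM and Dll4 at 111.7 CPM, the 3 members at 20 CPM or more there. Angpt2 at 17.4 CPM, Angpt1 at 6.33, Aplnr at 5.38 and Apln at 3.80 also lay above the 0.950 CPM that a count of 0 allows, and Esm1 had 0 UMIs. The 3 dpi library had 6 cells in this cluster, too few for a level. With the cluster added, Tek stood at 340.3 CPM in sham and 113 CPM at 3 dpi.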

How the results depend on the processing

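Apln, Aplnr and Angpt2 were the 3 members at least 2-fold higher under all 15 alternatives, and Tek was lower in each. Among these, resolutions 0.5 and 2.0 gave the same 1410 and 408 endothelial-like cells and the same levels as the main setting, so they add nothing. Dll4 joined Tek, for 2 members lower, with 1 CPM added, equal weight per cell, the members kept for clustering, pericyte-marker cells left out, female-derived cells alone and, in an alternative chosen after seeing the data, without the 10 cells with the most UMIs of the gene. The Dll4 log2 ratio ran from -1.28 to -0.69, and that of Apln from 2.83 to 5.87. The share of 3 dpi endothelial-like cells with Apln was 19.1% thinned to 1000 UMIs and 46.6% without thinning. The difference in percent with Angpt2 between cells with and without Apln was 26.5 in the report, 21.1 thinned to 1000 UMIs and 51.2 without thinning, that for Dll4 was 11.2, 8.12 and 47.1, and that for Aplnr -11.7, -7.45 and -10.1. Esm1 in fibroblast-like cells was 97.3 CPM, and 91.5 CPM with doublets kept. Of all measured genes, 590 were higher, against 258 with 50 CPM added and 956 with median-of-ratios scaling, and 995 were lower, against 1507 with 1 CPM added, 370 with 50 CPM added and 642 with median-of-ratios scaling. No paired analysis was possible because each group had 1 library, and none could be left out. Few UMIs limit the precision of Angpt1 in endothelial-like cells (4 and 1) and of Apln and Aplnr in sham (28 and 42).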
